A study of Mus musculus with 2 samples.

Results

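The variable segments of the T cell receptor alpha and beta chains were examined in single immune cells of the mouse colon. The members were all genes whose symbol starts with Trav or Trbv, which gave 163 segments (128 Trav and 35 Trbv) of 32285 genes in the deposited matrices. The rule used names only and no measured value, though the members were chosen with earlier results of these data known. Cells positive for CD45, the surface marker of leukocytes, were sorted from the gut lamina propria, the connective tissue under the epithelium, and 1 library was made for each of 2 groups, named CD163_NC and CD163_FL. According to its title the study set WT against CD163+ macrophage-deficient animals. The labels state neither the genotype behind each library name nor strain, age or number of animals, so no genotype is assigned to a library here. With 1 library per group there is no replicate, so no test between libraries was made. The 95% intervals below cover counting error only.

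Each alpha beta T cell builds its receptor by recombination, joining 1 variable (V) segment to joining and, for the beta chain, diversity segments, which are then spliced to a constant region. The V segment forms 2 of the 3 loops that touch the antigen and its presenting MHC molecule, and CD4+ T cells read MHC class II while CD8+ alpha beta T cells read class I. In the mouse the Trav cluster holds large duplicated blocks, whose copies carry d or n in their names, and some of its members (named dv) can also be joined into the delta chain of gamma delta T cells. The kit used here reads the 3′ ends of transcripts, whereas the V segment lies near the 5′ end, beyond the constant region.

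How far a read can name a segment depends on the sequence, so the last 60 bases of the segments on which the results turn are shown first. They are from the GENCODE M21 transcripts on GRCm38 (mm10), 5′ to 3′ on the plus strand, and the capitals mark the codon of the conserved cysteine just before the joint. In the beta locus on chromosome 6, Trbv12-2 (chr6:41118851-41119364), the most used segment, has a relative in Trbv12-1 (chr6:41113550-41114067), with Trbv13-1 between them. Trbv2 (chr6:41047340-41047995), Trbv3 (chr6:41048290-41048828) and Trbv16 (chr6:41151740-41152230) are those whose use passed the threshold between Cd8b1 and Cd4 barcodes in both libraries. Trbv24 (chr6:41218091-41218557) was the pseudogene with UMIs.
Trbv12-2: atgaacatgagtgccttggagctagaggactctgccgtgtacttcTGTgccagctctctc
Trbv12-1: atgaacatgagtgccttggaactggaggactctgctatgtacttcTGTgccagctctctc
Trbv2: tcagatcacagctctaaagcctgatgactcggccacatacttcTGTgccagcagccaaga
Trbv3: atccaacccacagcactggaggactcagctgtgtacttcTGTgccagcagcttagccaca
Trbv16: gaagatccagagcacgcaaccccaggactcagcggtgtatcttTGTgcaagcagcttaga
Trbv24: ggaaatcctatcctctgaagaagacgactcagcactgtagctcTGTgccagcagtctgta

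In the alpha locus on chromosome 14, the Trav16 copies show a family whose members can still be told apart: Trav16 (chr14:53743104-53743705), Trav16n (chr14:53351028-53351621) and Trav16d-dv11 (chr14:53047287-53047821). Trav11 (chr14:53519303-53519859), the segment of invariant natural killer T cells, and Trav11d (chr14:52824357-52824912) show a pair that cannot.
Trav16: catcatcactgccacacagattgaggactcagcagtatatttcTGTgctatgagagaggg
Trav16n: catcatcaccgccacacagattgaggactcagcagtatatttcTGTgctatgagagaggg
Trav16d-dv11: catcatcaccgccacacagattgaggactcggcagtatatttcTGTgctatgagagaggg
Trav11: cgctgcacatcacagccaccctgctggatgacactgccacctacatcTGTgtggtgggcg
Trav11d: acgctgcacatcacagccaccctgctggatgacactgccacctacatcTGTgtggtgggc
Over their aligned transcripts, Trbv12-1 and Trbv12-2 were 88.3% identical, Trav16 and Trav16n 98.5%, and Trav11 and Trav11d 100%.

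The deposited matrices held 10390 barcodes in CD163_NC and 15270 in CD163_FL. After filtering and removal of called doublets 9705 and 13722 remained, with a median of 6024 and 6463 UMIs (unique molecular identifiers, each counted as 1 captured RNA molecule). A barcode was taken as a T cell when it held at least 1 UMI of Cd3e or Cd3g, the CD3 chains that accompany the receptor on the cell surface, which gave 3927 T barcodes (40.5%) in CD163_NC and 7408 (54.0%) in CD163_FL, with medians of 5935 and 7168.5 UMIs. The alpha constant gene Trac was detected in 79.3% and 79.1% of them. Markers of other cells were also present: a UMI of the B cell gene Cd79a was found in 18.3% and 7.44% of T barcodes, of the myeloid gene Lyz2 in 14.9% and 9.04%, and of the epithelial gene Epcam in 10.5% and 6.03%. The 7 B-lineage markers, none of them at 0, summed to 8880 CPM (UMIs scaled to an equal total of all UMIs) in the T barcodes of CD163_NC and 4271 in those of CD163_FL. The 5 myeloid markers summed to 415 and 405 CPM and the 3 epithelial markers to 165 and 82.9 CPM. Some results are also given without barcodes that hold a UMI of Cd79a, Ms4a1, Lyz2 or Epcam, as values of single segments or only as counts of calls. The libraries shared 49 barcode sequences, 8 of them among T barcodes.

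V segments were seen in a minority of T cells. A Trbv UMI was present in 502 of 3927 T barcodes of CD163_NC (12.8%, interval 11.8 to 13.9) and in 966 of 7408 of CD163_FL (13.0%, 12.3 to 13.8), a ratio of 1.02 (0.922 to 1.13). A Trav UMI was present in 548 (14.0%, 12.9 to 15.1) and 686 (9.26%, 8.61 to 9.94), a ratio of 0.664 (0.597 to 0.737). The beta segments were thus detected about equally often in both libraries and the alpha segments less often in CD163_FL. With every barcode thinned to 2000 UMIs, which leaves out 194 and 150 shallower T barcodes, Trbv was found in 3.80% and 3.29% (ratio 0.866, 0.706 to 1.06) and Trav in 4.96% and 2.65% (0.534, 0.438 to 0.651). Barcodes with no Cd3e or Cd3g UMI but with Cd79a, which should lack these transcripts, held a Trbv UMI in 0.333% (CD163_NC, 3605 barcodes, median 7762 UMIs) and 0.472% (CD163_FL, 2332 barcodes) and a Trav UMI in 0.361% and 0.257%. Over all barcodes without Cd3e and Cd3g the Trbv shares were 0.606% and 1.12% and the Trav shares 0.640% and 0.982%.

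T barcodes were then divided by coreceptor: those with Foxp3, the regulatory T cell factor, and no Cd8b1, those with Cd4 only, those with Cd8b1 (the CD8 beta chain) only, those with Cd8b1 and either of the others, and those with none of the 3, split by Trdc, the delta constant gene. Among Cd4 barcodes (1564 in CD163_NC and 2336 in CD163_FL) Trbv was detected in 17.3% and 14.4%, a ratio of 0.833 (0.719 to 0.965), and Trav in 17.6% and 11.5%, a ratio of 0.652 (0.558 to 0.762). At equal depth these ratios were 0.590 (0.423 to 0.822) for Trbv and 0.506 (0.371 to 0.690) for Trav. Among Cd8b1 barcodes (685 and 2433) the ratios of the 2 chains lay on opposite sides of 1. Trbv was detected in 12.4% and 17.6%, a ratio of 1.41 (1.14 to 1.76), which at equal depth was 1.23 (0.797 to 1.90). Trav was detected in 14.6% and 9.91% of them, a ratio of 0.679 (0.546 to 0.843). In the small Foxp3 set Trbv was found in 13 of 123 barcodes (10.6%) and 8 of 82 (9.76%), and Trav in 22 (17.9%) and 3 (3.66%). Barcodes with none of the 3 genes and no Trdc (1346 and 2148) had a Trbv UMI in 7.73% and 6.52% and a Trav UMI in 8.84% and 6.05%. Of these barcodes, 60.5% and 60.1% held Trac. The coreceptor gene Cd8a was not used for the division and was found in 11.8% and 20.9% of them. Low shares were also found in barcodes with Trdc and none of the 3 genes. Trbv was found there in 5 of 112 (4.46%) and 8 of 193 (4.15%) and Trav in 7 (6.25%) and 8 (4.15%). Those shares were still above the values in Cd79a barcodes.

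**Figure D1:**
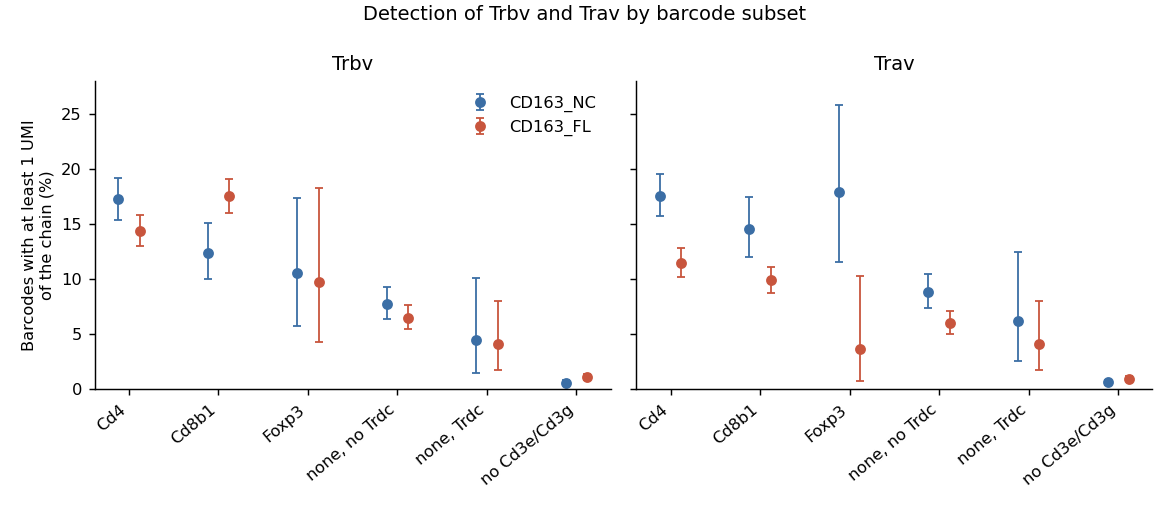
Percent of T barcodes with at least 1 Trbv UMI (left) and at least 1 Trav UMI (right) by coreceptor class, with the background of all barcodes without Cd3e and Cd3g at the right of each panel; points are libraries and bars are 95% Clopper-Pearson intervals, which cover counting error only. In Cd8b1 barcodes the Trbv point of CD163_FL (17.6%) lies above that of CD163_NC (12.4%), while the Trav point of CD163_FL (9.91%) lies under that of CD163_NC (14.6%).

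The number of V UMIs was also set against the constant region of the same chain to which it is spliced. There were 5.35 Trav UMIs per 100 Trac UMIs in CD163_NC and 3.52 in CD163_FL, a ratio of 0.657 (0.595 to 0.726). There were 2.08 Trbv UMIs per 100 UMIs of Trbc1 and Trbc2 in CD163_NC and 1.31 in CD163_FL, a ratio of 0.629 (0.570 to 0.695). By this measure both chains were lower in CD163_FL, also for Trbv in Cd8b1 barcodes, where the values were 1.60 and 1.24 (ratio 0.774, 0.621 to 0.973). Over all kept barcodes, immunoglobulin segments were lower per constant UMI too for the kappa chain (1.22 and 0.737, ratio 0.603) and the heavy chain (1.22 and 0.551, ratio 0.450). They were not lower for the lambda chain (5.45 and 6.34, ratio 1.16), and the delta chain gave 56.9 and 51.7 (ratio 0.909, 0.810 to 1.02). A lower ratio of V to constant UMIs in CD163_FL was thus also measured outside the T cell receptor genes, and its cause was not tested. The constant genes themselves did not move alike: Trac was at 421 CPM in CD163_NC and 376 CPM in CD163_FL, Trbc1 at 324 and 540 CPM, and Trbc2 at 599 and 803 CPM.

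Among the beta segments, all 22 annotated as V genes had a UMI (2 to 382 UMIs each over both libraries), and each library showed 23 of the 35 Trbv genes. Of the 13 pseudogenes only Trbv24 had UMIs, 11 in all, in 4 barcodes of CD163_NC and 7 of CD163_FL. Its sequence above holds an in-frame stop before the cysteine codon. The other 12 had none of 1774 Trbv UMIs, a count that allows each a share of up to 0.169%. A barcode was assigned the segment with strictly the most UMIs of its chain, which gave a Trbv segment to 488 barcodes of CD163_NC and 921 of CD163_FL. Most assignments rest on 1 UMI of the segment (85.2% and 87.8%).

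Trbv12-2 was the most used beta segment in both libraries. It was assigned in 72 of 488 barcodes of CD163_NC (14.8%, 11.7 to 18.2) and 235 of 921 of CD163_FL (25.5%, 22.7 to 28.5), a ratio of 1.73 (1.36 to 2.20). Its relative Trbv12-1 had 25 (5.12%) and 46 (4.99%). Trbv13-1 had 25 (5.12%) and 23 (2.50%), a ratio of 0.487 (0.280 to 0.850). The Trbv13-1 ratio was 1.29 (0.242 to 6.84) in barcodes with at least 2 Trbv UMIs and 0.654 (0.330 to 1.30) without the barcodes holding other-cell markers, neither of which meets the rule for a call. A segment was called where its shares differed at least 1.5-fold and the interval of the ratio left out 1. By that rule 1 of 19 tested Trbv segments was higher (5.26%) and 1 was lower (5.26%) in CD163_FL, Trbv12-2 and Trbv13-1. Without the barcodes holding other-cell markers 2 were higher and 2 lower, and Trbv12-2 then had a ratio of 1.60. Trbv16 lay just under the threshold with 29 (5.94%) and 82 (8.90%) and an interval of the ratio from 0.995 to 2.26. Within Cd8b1 barcodes and within Cd4 barcodes, given below, its share was not higher in CD163_FL.

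No other common beta segment was called between the libraries. Trbv2 was assigned in 42 barcodes of CD163_NC (8.61%) and 64 of CD163_FL (6.95%), Trbv3 in 40 (8.20%) and 65 (7.06%), and Trbv1 in 34 (6.97%) and 74 (8.03%). Trbv15 had 28 (5.74%) and 65 (7.06%), Trbv20 33 (6.76%) and 43 (4.67%), and Trbv26 25 (5.12%) and 32 (3.47%). Each of these ratios had an interval that included 1. Trbv31, which lies beyond the constant genes in the opposite orientation and joins by inversion, was used in 14 (2.87%) and 22 (2.39%).

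**Figure D2:**
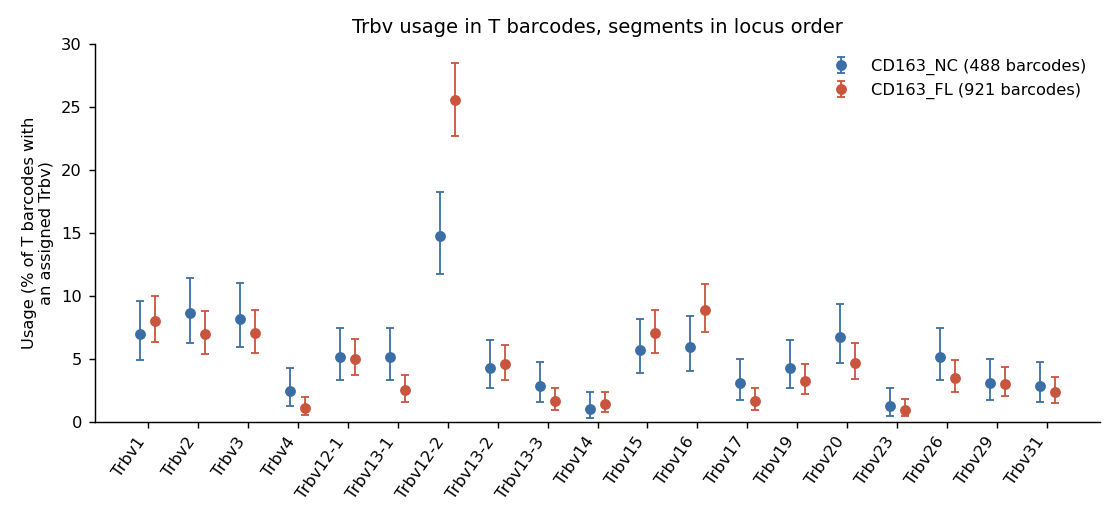
Share of barcodes with an assigned Trbv segment that carried each of the 19 tested segments, in percent, in locus order, for CD163_NC (488 barcodes) and CD163_FL (921); bars are 95% Clopper-Pearson intervals for counting error. Trbv12-2 stands highest in both, at 14.8% and 25.5%.

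The evenness of use was then summarised. The effective number of Trbv segments (the inverse Simpson index, the number of equally used segments that would give the same diversity) was 15.1 ± 0.805 (SE from counting) in CD163_NC and 9.49 ± 0.533 in CD163_FL. With Trbv12-2 left out, an alternative chosen after its value was seen, it was 16.2 ± 0.675 and 13.7 ± 0.479. In Cd4 barcodes it was 12.7 ± 1.04 and 9.56 ± 0.752, and in Cd8b1 barcodes 13.6 ± 2.61 and 7.93 ± 0.634. The 5 most used segments took 45.3% of assigned barcodes in CD163_NC and 56.6% in CD163_FL. For Trav the effective number was 32.6 ± 2.54 and 30.8 ± 2.27, a difference within the counting error. In barcodes with at least 2 UMIs of the chain the values were 9.76 ± 1.77 (72 barcodes) and 9.43 ± 1.36 (112 barcodes) for Trbv, so the libraries did not differ beyond counting error there. For Trav they were then 15.3 ± 3.37 and 22.9 ± 4.79, with CD163_NC the lower, a difference that was also within the counting error.

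Trbv12-2 was followed through the classes. In Cd8b1 barcodes it was assigned in 8 of 82 (9.76%) in CD163_NC and 109 of 399 (27.3%) in CD163_FL, a ratio of 2.80 (1.42 to 5.51), and it was the 1 called of 13 segments tested there (7.69%). In Cd4 barcodes it was assigned in 44 of 260 (16.9%) and 72 of 322 (22.4%), a ratio of 1.32 (0.943 to 1.85), and none of 16 segments was called there. In barcodes with none of Cd4, Cd8b1, Foxp3 and Trdc its share was 15.5% and 29.5%, a ratio of 1.90 (1.13 to 3.19). It was the 1 called of 12 segments there (8.33%). The ratio was thus above 1 outside Cd8b1 barcodes too, but in Cd4 barcodes its interval included 1. The class with none of these genes held Cd8a in 11.8% of barcodes in CD163_NC and 20.9% in CD163_FL. Whether the higher share in that class came from cells with Cd8a was not tested. Where no Cd3e or Cd3g was detected, Trbv12-2 had 4 of 35 assigned barcodes (11.4%, 3.20 to 26.7) in CD163_NC and 21 of 71 (29.6%, 19.3 to 41.6) in CD163_FL, and these intervals overlap.

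Among barcodes assigned Trbv12-2, 13.9% held Cd8b1 in CD163_NC and 49.4% in CD163_FL, while 63.9% and 33.2% held Cd4. Over all T barcodes 19.9% and 35.8% held Cd8b1, and 44.2% and 35.2% held Cd4. The Cd8b1 share was also higher in CD163_FL with Trbv1 (26.5% and 52.7%), Trbv12-1 (32.0% and 54.3%) and, by less, Trbv2 (16.7% and 20.3%). Trac was present in 91.7% and 88.1% of the barcodes assigned Trbv12-2. A Trav UMI accompanied Trbv12-2 in 13 of 72 barcodes (18.1%) in CD163_NC against 82 of 416 barcodes (19.7%) with another Trbv segment. In CD163_FL the values were 18 of 235 (7.66%, 4.60 to 11.8) and 101 of 686 (14.7%), a ratio of 0.520 (0.322 to 0.840). The median depths there were 8478 and 10055 UMIs, so the barcodes with Trbv12-2 were also shallower, and the part of depth in this ratio was not tested. In Cd8b1 barcodes of CD163_FL the shares with a Trav UMI were 6.42% and 14.8%, with medians of 9187 and 11355.5 UMIs (ratio 0.433, 0.201 to 0.933). In Cd4 barcodes of CD163_FL they were 9.72% and 16.8% (ratio 0.579, 0.272 to 1.23). In those with none of Cd4, Cd8b1, Foxp3 and Trdc they were 4.88% and 6.12% (ratio 0.797, 0.168 to 3.78), so both of these intervals include 1.

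The use of beta segments was compared between the 2 coreceptor classes within each library. Trbv16 was used mostly in Cd8b1 barcodes. In CD163_NC it was assigned in 16 of 82 Cd8b1 barcodes (19.5%) and 5 of 260 Cd4 barcodes (1.92%), a ratio of 10.1 (3.83 to 26.8). In CD163_FL it was assigned in 66 of 399 (16.5%) and 5 of 322 (1.55%), a ratio of 10.7 (4.34 to 26.1). The ratio was close in the 2 libraries.

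Trbv2 and Trbv3, neighbours at the distal end of the locus, were the opposite. Trbv2 was assigned in 2 Cd8b1 barcodes (2.44%) and 28 Cd4 barcodes (10.8%) in CD163_NC, a ratio of 0.226 (0.0551 to 0.930). In CD163_FL it was assigned in 11 (2.76%) and 42 (13.0%), a ratio of 0.211 (0.111 to 0.404). For Trbv3 the counts were 2 (2.44%) and 30 (11.5%) in CD163_NC, a ratio of 0.211 (0.0516 to 0.866), and 6 of 399 and 41 of 322 (12.7%) in CD163_FL, a ratio of 0.118 (0.0508 to 0.275). Both segments were thus used more in Cd4 barcodes in each library. In CD163_NC the low side rests on 2 barcodes for each gene. Without barcodes holding a UMI of Cd79a, Ms4a1, Lyz2 or Epcam, Trbv2 gave 0.301 (0.0728 to 1.24) and Trbv3 0.176 (0.0240 to 1.29) in CD163_NC, no longer called, and 0.219 and 0.130 in CD163_FL. Trbv16 then gave 7.11 and 8.67 and was called in both.

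In CD163_NC 2 of 15 tested Trbv segments were higher in Cd8b1 barcodes (13.3%) and 2 lower (13.3%). In CD163_FL 2 of 17 were higher (11.8%) and 4 lower (23.5%). Of 14 segments tested in both libraries, 1 was called higher and 2 lower in each, and 11 had their ratio on the same side of 1. Trbv29, called in CD163_NC with 6 and 5 barcodes (ratio 3.80), gave 15 and 5 in CD163_FL (ratio 2.42, 0.889 to 6.59). Trbv13-1 gave 1 and 15 in CD163_NC (0.211, 0.0284 to 1.58) and 6 and 14 in CD163_FL (0.346). Trbv20 had 1 and 23 barcodes in CD163_NC and 18 and 18 in CD163_FL. Trbv14 was assigned in 10 of 399 Cd8b1 barcodes of CD163_FL and in 0 of 322 Cd4 barcodes, a count that allows a share of up to 0.932%. It had 2 and 2 barcodes in CD163_NC, too few to be tested.

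**Figure D3:**
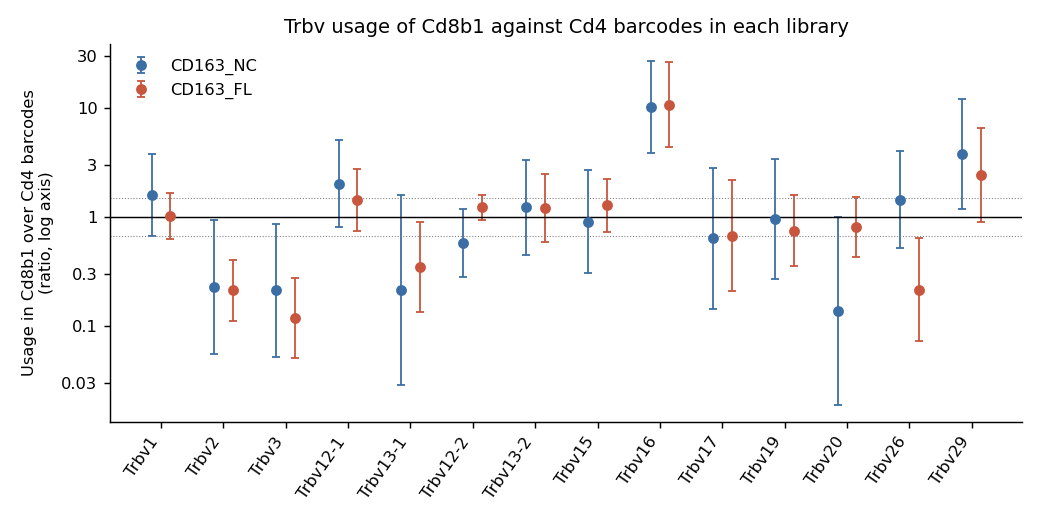
Ratio of each Trbv segment's share in Cd8b1 barcodes to its share in Cd4 barcodes, on a log axis, for the 14 segments tested in both libraries, with 95% intervals for counting error; the solid line marks a ratio of 1 and the dotted lines 1.5-fold either way. Trbv16 lies at 10.1 and 10.7, and Trbv2 and Trbv3 lie under 0.25 in both libraries.

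The alpha segments were more dispersed and harder to tell apart. A Trav UMI was seen for 74 segments in CD163_NC, 70 in CD163_FL and 77 in either. Of 108 Trav genes annotated as V genes, 72 had a UMI. Of these 108, 74 had at least 1 window of 90 bases that occurs in no other Trav or Trbv transcript, and 70 of those 74 were detected, with 1535 UMIs. The other 34 had no such window, and 2 of them were detected, with 2 UMIs in all. Segments with no UMI were therefore mostly those whose letters are shared with a copy. The 4 undetected segments with some unique sequence were Trav13d-4 (70.7% of windows unique), Trav12n-3 (2.27%), Trav7n-6 (76.4%) and Trav18 (100%). Of 20 Trav pseudogenes 5 had UMIs, 56 in all, of which Trav8-2 had 33.

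**Figure D4:**
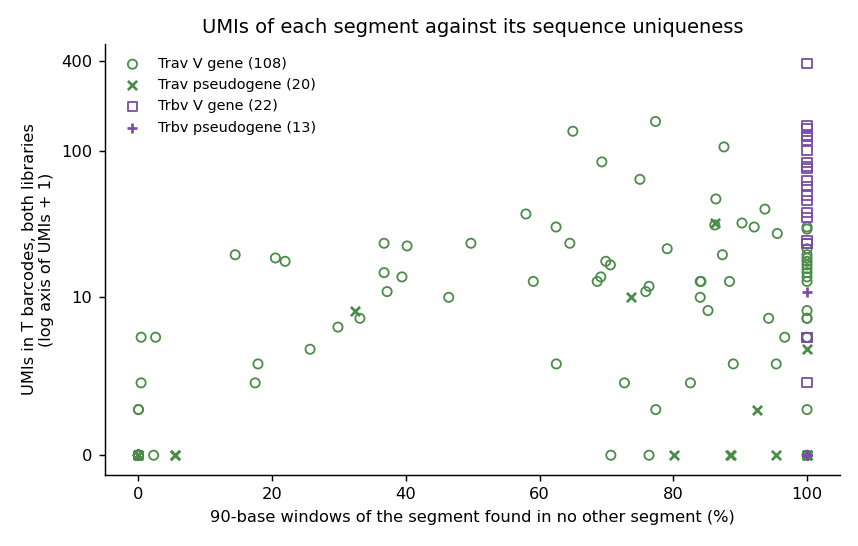
UMIs of each segment in T barcodes of both libraries (log axis of UMIs plus 1) against the percent of its 90-base windows that occur in no other Trav or Trbv transcript. The 34 Trav V genes at 0% unique windows hold 2 UMIs in all.

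A Trav segment was assigned in 518 barcodes of CD163_NC and 653 of CD163_FL. Trav16 had 42 (8.11%) and 55 (8.42%), Trav16n 34 (6.56%) and 60 (9.19%), Trav3-3 38 (7.34%) and 42 (6.43%), and Trav6-7-dv9 31 (5.98%) and 39 (5.97%). These 4 led in both libraries and their shares were close. Taken as families, Trav16 held 17.7% and 19.7%, Trav6 12.5% and 15.9%, Trav7 9.23% and 7.59%, Trav14 8.85% and 6.53%, Trav13 8.65% and 9.26%, and Trav3 7.88% and 7.28%. A family's share does not depend on which of its copies a UMI was counted for, but reads counted for no copy are missing from it.

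**Figure D5:**
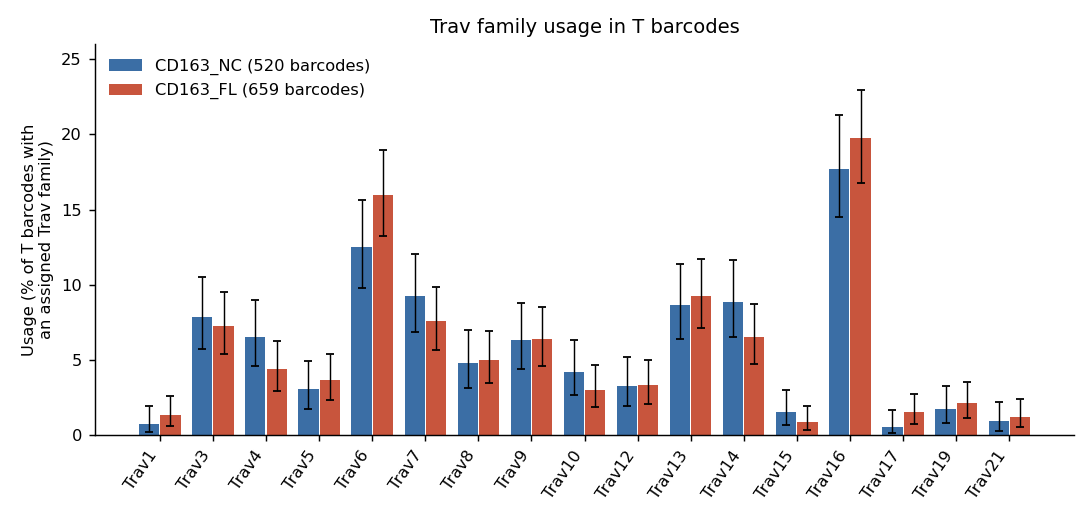
Share of barcodes with an assigned Trav family that carried each family, in percent, for both libraries, with 95% Clopper-Pearson intervals for counting error. The Trav16 family leads in both, at 17.7% and 19.7%.

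Between the libraries 2 of 46 tested Trav segments were higher in CD163_FL (4.35%) and 2 lower (4.35%). Trav13-1 had 8 (1.54%) and 23 barcodes (3.52%), a ratio of 2.28 (1.03 to 5.06), and Trav6n-5 had 2 (0.386%) and 14 (2.14%), a ratio of 5.55 (1.27 to 24.3). Trav4-4-dv10 had 28 (5.41%) and 19 (2.91%), a ratio of 0.538 (0.304 to 0.953), and Trav14-3 had 9 (1.74%) and 3 (0.459%), a ratio of 0.264 (0.0720 to 0.972). None of the 4 was called once barcodes with a UMI of Cd79a, Ms4a1, Lyz2 or Epcam were left out. In Cd4 barcodes Trav13-1 was the 1 called of 14 (7.14%), with 2 barcodes in CD163_NC and 13 in CD163_FL, and in Cd8b1 barcodes none of 5 was called. Other common segments were Trav14d-3-dv8 with 14 and 11 barcodes, Trav16d-dv11 with 16 and 14, Trav10 with 14 and 10, Trav5-4 with 12 and 15, Trav14-2 with 10 and 15, Trav8n-2 with 11 and 5, Trav12-2 with 8 and 14, and Trav19 with 9 and 14.

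The same comparison was made for the alpha segments. In CD163_NC 1 of 7 tested was higher in Cd8b1 barcodes (14.3%), Trav16d-dv11 with 6 and 4 barcodes, and none lower. In CD163_FL 1 of 12 was higher (8.33%) and 1 lower (8.33%). Trav16 had 23 Cd8b1 and 11 Cd4 barcodes there, a ratio of 2.32 (1.16 to 4.65), and 12 and 17 in CD163_NC, a ratio of 1.86 (0.921 to 3.74). Trav4-4-dv10 had 2 and 12 in CD163_FL. None of 5 segments tested in both libraries was called in both, and 4 of 5 had their ratio on the same side of 1.

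Position in the locus was compared next. The Trbv genes upstream of the constant regions were divided into 3 runs of 7 V genes, which leaves out Trbv31. The distal run held 37.3% of assigned barcodes in CD163_NC and 30.7% in CD163_FL, the middle run, which includes Trbv12-2, 37.7% and 50.7%, and the proximal run 21.3% and 15.6%. Of 108 Trav genes in 3 runs of 36, the distal run held 9.46% and 11.9%, the middle run 23.9% and 24.7%, and the proximal run, nearest the joining segments, 332 of 518 (64.1%) and 392 of 653 (the interval is 56.2 to 63.8%). The proximal run of Trav was used most in both libraries. The share of a run also follows how far its reads can be named: Trav segments that are neither d nor n copies (55 segments, median 90.3% unique windows) held 71.2% and 69.4%, n copies (34, median 1.14%) 16.4% and 19.9%, and d copies (39, median 0.403%) 12.4% and 10.7%. Position and uniqueness cannot be told apart here.

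Segments that can serve both chains, and those of invariant T cells, were looked at for the cell type they mark. Barcodes with a UMI of 1 of the 10 dv segments held Trdc in 7 of 123 (5.69%, 2.32 to 11.4) in CD163_NC and 4 of 116 (3.45%) in CD163_FL. Barcodes with other Trav segments held it in 7 of 437 (1.60%) and 16 of 585 (2.74%). Over all T barcodes Trdc was in 150 of 3927 (3.82%) and 274 of 7408 (3.70%), inside the interval of the dv share in each library (0.947 to 8.59 in CD163_FL). In CD163_NC Trdc was in 2 barcodes each of Trav15-1-dv6-1, Trav6-7-dv9 and Trav13-4-dv7, and in 1 each of Trav15-2-dv6-2 and Trav4-4-dv10. In CD163_FL it was in 1 barcode each of Trav15-1-dv6-1, Trav15d-1-dv6d-1, Trav6-7-dv9 and Trav21-dv12. A barcode can count for more than 1 segment. Trav11, the alpha segment of invariant natural killer T cells, had no UMI in CD163_NC, which allows a UMI in up to 0.0764% of T barcodes. In CD163_FL it had UMIs in 2 T barcodes, both with Zbtb16, the factor of innate-like T cells. Trav11d had none in either. Trav1, the segment of mucosa-associated invariant T cells, was in 4 T barcodes of CD163_NC, 2 of them with Zbtb16, and in 9 of CD163_FL, 1 of them with Zbtb16. Trav11 and Trav11d share nearly all their sequence (0.394% and 0% unique windows), so their counts cannot be read as numbers of these cells.

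A barcode with both a Trav and a Trbv assignment gives a candidate receptor pair. There were 85 in CD163_NC with 79 distinct pairs, the largest seen in 2 barcodes, and 109 in CD163_FL with 98 distinct pairs, the largest seen in 3. That pair was Trbv3 with Trav5-4, for which independent use of the segments would give 0.177 barcodes. No pair reached 10 barcodes. The chance that 2 paired barcodes share a pair was 0.168% in CD163_NC and 0.204% in CD163_FL, against 0.222% and 0.361% under independent use. The values under independent use come from all assigned barcodes, not only the paired ones, and lack the correction for sample size that the observed values carry. The 2 are therefore not like measures, and the gap between them is not read as a result. Trbv12-2 was spread over partners: its most frequent pair in CD163_FL, with Trav16, was in 2 barcodes, as was its pair with Trav3-3.

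Among barcodes with at least 2 UMIs of a chain, 20 of 86 (23.3%) in CD163_NC and 57 of 157 (36.3%) in CD163_FL held more than 1 Trbv segment. For Trav the values were 39 of 122 (32.0%) and 44 of 130 (33.8%). A T cell usually carries 1 productive beta chain but may carry more than 1 alpha chain. Trbv was not lower than Trav in CD163_FL. A tie between segments left 14 and 45 barcodes without a Trbv assignment and 30 and 33 without a Trav assignment.

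Summed over all T barcodes and scaled to CPM, 2 of 19 tested Trbv segments were higher in CD163_FL and 3 lower, against 10.5% higher and 20.5% lower of 16504 genes, and the median log2 ratio was -0.51 against -0.05 over all genes. Trbv12-2 went from 90 UMIs (2.83 CPM) in CD163_NC to 292 (4.41 CPM) in CD163_FL, a ratio of 1.56 (1.23 to 2.00). Trbv16 had 32 and 109 UMIs, a ratio of 1.64 (1.10 to 2.51). Within a class its usage share was not higher in CD163_FL: 19.5% and 16.5% in Cd8b1 barcodes, 1.92% and 1.55% in Cd4 barcodes. Trbv2 (0.597), Trbv13-1 (0.515) and Trbv20 (0.552) were lower. Of 25 tested Trav segments none was higher and 11 were lower, with a median log2 ratio of -0.85. The lowest ratios included Trav8n-2 (0.135), Trav10 (0.229) and Trav4-4-dv10 (0.321), and the most used segments Trav16 (0.589), Trav3-3 (0.509) and Trav6-7-dv9 (0.516) were among the 11. Several UMIs of a segment can come from 1 cell, which the intervals of summed UMIs do not allow for. Trav8n-2 had a mean of 1.64 UMIs in its 11 assigned barcodes of CD163_NC. With the other-cell barcodes left out, none of the Trbv segments was higher and 7 were lower, so Trbv12-2 and Trbv16 were then no longer called. The share of all genes called at that setting is not set beside these counts, so they are not read as particular to the segments.

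Genes that work with the V segments were taken from a list of 24 genes of the receptor, its CD3 chains, coreceptors, signalling and recombination. Of 22 tested, 5 were higher (22.7%) and 2 lower (9.09%) in T barcodes of CD163_FL, against 10.5% and 20.5% of all genes. The median log2 ratio was 0.15 against -0.05 over all genes. Those higher were Trbc1 (324 and 540 CPM), the coreceptor genes Cd8a (61.6 and 152 CPM) and Cd8b1 (78.3 and 151 CPM), Cd28, a costimulatory receptor (553 and 875 CPM), and Themis, a regulator of thymic selection signalling (459 and 798 CPM). Those lower were Ptcra, the pre-receptor alpha chain (63 and 69 UMIs), and Dntt, which adds bases at the joints (17 and 7 UMIs). The classes differ in size: Cd8b1 barcodes were 685 of 3927 T barcodes in CD163_NC and 2433 of 7408 in CD163_FL. Within them Cd8b1 was at 412 and 394 CPM and Cd8a at 260 and 354 CPM. In Cd4 barcodes 2 of 20 tested list genes were higher in CD163_FL (10%, all genes 11.8%) and 1 lower (5%, all genes 16.0%). In Cd8b1 barcodes 2 of 20 were higher (10%, all genes 12.4%) and 1 lower (5%, all genes 17.6%). Rag1 and Rag2, which cut the segments, had no UMI in the T barcodes of either library, which allows a UMI in up to 0.0764% and 0.0405% of T barcodes and sets no limit on the cells that express them.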

How the data were processed

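Single-cell 3′ libraries (10x, version 3 kit per the labels) of sorted CD45+ colon cells were analysed from deposited UMI count matrices, which the authors made with Cell Ranger 7.1.0 per the file headers. The build mm10 and Seurat 4 are named in the submitters' processing notes. Barcodes with at least 500 UMIs, 200 genes and at most 10% mitochondrial UMIs were kept (378 and 891 failed), and Scrublet (scanpy 1.11.5) calls were removed per library (307 and 657). T barcodes had at least 1 Cd3e or Cd3g UMI. Usage was the share of barcodes in which a segment had strictly the most UMIs of its chain. Shares have 95% Clopper-Pearson intervals and ratios log-normal ones, while summed UMIs use an exact conditional binomial interval. A call needed 1.5-fold and an interval without 1, with at least 10 barcodes (20 UMIs for sums). Segment sequences and windows of 90 bases came from GENCODE mouse release 21. The scripts were tested on simulated data. The members and lists were chosen with earlier results of these data known. Named segments were, by rule, the 10 most used Trav per library, Trbv at 5% or more of either library, those called between libraries or in both libraries between Cd8b1 and Cd4, and always Trav1, Trav11, Trav11d, Trbv31 and dv segments. Others were named after their values were seen.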

Additional observations from a re-analysis of the deposited data

Results flagged for a closer look

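For 4 segments the share in Cd8b1 barcodes relative to Cd4 barcodes lay on opposite sides of 1 in the 2 libraries. The difference was not tested, since there is 1 library per group, and the intervals of the ratios between libraries (CD163_FL over CD163_NC) cover counting error only. For Trbv12-2 the Cd8b1 over Cd4 ratio was 0.576 in CD163_NC and 1.22 in CD163_FL, a ratio of ratios of 2.12 (0.994 to 4.52). For Trbv26 it was 1.44 and 0.215, a ratio of ratios of 0.149 (0.0333 to 0.669). For Trbv15 the ratio of ratios was 1.41 (0.416 to 4.75) and for Trav16n 0.577 (0.219 to 1.52), so both intervals include 1.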

How the results depend on the processing

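No paired analysis was possible because each group has 1 library. Of 315 values under other settings, 283 stayed with the reported value, 31 moved and 1 turned direction. A value stayed if it lay inside the interval of the reported value, or for a count within 1.5-fold of it. Where few barcodes give a wide interval a value can hardly leave it, so the 283 do not measure robustness. A value that stayed could still lose its call, as Trbv2 and Trbv3 did in CD163_NC without barcodes of other-cell markers. With at least 2 UMIs of a chain per barcode, the Trbv13-1 share was 1.29 times that of CD163_NC (0.487 in the report), the Trbv12-2 ratio was 2.89, and the Trav detection ratio was 0.565. That setting gave 0 called Trav segments between libraries, 0 Trbv segments called between Cd8b1 and Cd4 in both libraries, effective numbers of 9.76 for Trbv in CD163_NC and of 15.3 and 22.9 for Trav, and 100% distinct pairs among 3 paired barcodes in each library. Thinning gave detection ratios of 0.866 (Trbv) and 0.534 (Trav). The 2 called Trbv segments between libraries became 5 with doublets kept, 5 with no filter on barcodes, 4 without barcodes of other-cell markers and 0 when the interval had to lie wholly beyond 1.5-fold. The 4 called Trav segments became 2 with at least 2 Cd3e and Cd3g UMIs, 0 without other-cell barcodes and 0 beyond 1.5-fold. The 3 Trbv segments called in both libraries became 1 in each of those last 2 settings, Trbv16. Summed UMIs beyond 1.5-fold gave 0 Trbv and 4 Trav segments, counts given without the share of all genes at that setting. Leaving out Trbv12-2, a choice made after seeing the data, gave an effective number of 13.7 in CD163_FL. Depth limits these values: few barcodes hold a V UMI, most of them 1.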
